A study of Caenorhabditis elegans with 4 samples.

Results

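A set of 9 genes for neuronal immunoglobulin-domain adhesion proteins, rig-3, rig-4, rig-5, rig-6, ncam-1, syg-1, syg-2, sax-3 and sax-7, was examined for regions bound by CES-1, a zinc finger transcription factor of the Snail family. They are 9 of 19985 protein-coding genes of the Ensembl annotation of Caenorhabditis elegans (build WBcel235, also called ce11), and they were taken by name. A region was given to a gene when its summit, the position of highest signal within it, lay in the gene body or at most 5 kb from either end; this stretch is called the window below. The data were ChIP-seq peak lists, in which a region is a stretch of genome scored for enrichment by the antibody over a control. A listed region is a candidate, and not every one is a bound site. The lists came from 1 group of 4 biological replicates with no second condition. Every library was made from whole L4 larvae, the last larval stage, of pooled male and female animals of strain OP174. This strain carries the mutation unc-119(ed3) and the insertion wgIs174, which holds ces-1 fused to the TY1, EGFP and FLAG tags together with a copy of unc-119, and an antibody labelled as one to ces-1 was used. All 4 libraries share the mutation and the insertion, and no list of an untagged strain was used here. The strain source label is CGC for replicates 1 and 2 and Michael Snyder for replicates 3 and 4. The fragmentation label differs between the same pairs of libraries, so these labels cannot be told apart. The promoter driving the transgene is not named in the labels, and whole animals do not tell in which cells a region was bound.

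Proteins of this kind sit on the surface of axons and dendrites, where their extracellular immunoglobulin domains bind partners on neighbouring cells or in the matrix. They guide growing axons, choose where synapses form and hold neurons in place after development. In C. elegans, SAX-3 is the Robo receptor for the guidance cue SLT-1, SYG-1 and SYG-2 bind each other to place the synapses of the HSN motor neuron, and SAX-7, the homologue of vertebrate L1CAM, keeps neurons in position. RIG-3 is a GPI-anchored protein of motor and command neurons, RIG-4 is the homologue of Sidekick, RIG-6 that of contactin and NCAM-1 that of the neural cell adhesion molecule. RIG-5 is a cell-surface protein whose reported partner is ZIG-8. Snail family factors bind E-boxes, sequences of the form CANNTG, with CAGGTG as the form the family is known for.

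The DNA at 4 member regions is shown first because the results turn on these sites: both reproducible peaks, at rig-3 and sax-3, and the strongest weaker regions inside sax-7 and upstream of ncam-1. Each sequence is the forward strand of WBcel235 as held by RefSeq, 5′ to 3′, centred on the pooled summit; capitals mark an E-box, CANNTG, and the rest is in lower case. The rig-3 window lies at chrX:6856871-6857169 and has 35.5% GC. Its capitals begin at the summit and read CATTTG. The sax-3 window lies at chrX:3469326-3469624 and has 46.8% GC. Its capitals, CAGATG, begin 130 bp past the summit, and it holds runs of 14 and 16 G. The sax-7 window, at chrIV:8081042-8081142, has no E-box, and the ncam-1 window, at chrX:687623-687723, has CATCTG, which starts 13 bp before the summit. None of the 4 contains CAGGTG.
rig-3: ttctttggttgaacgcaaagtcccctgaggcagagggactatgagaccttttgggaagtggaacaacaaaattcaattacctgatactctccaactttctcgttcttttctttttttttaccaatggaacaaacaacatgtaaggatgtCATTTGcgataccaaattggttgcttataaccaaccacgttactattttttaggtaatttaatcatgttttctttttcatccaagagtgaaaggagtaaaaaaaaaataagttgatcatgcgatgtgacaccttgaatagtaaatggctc
sax-3: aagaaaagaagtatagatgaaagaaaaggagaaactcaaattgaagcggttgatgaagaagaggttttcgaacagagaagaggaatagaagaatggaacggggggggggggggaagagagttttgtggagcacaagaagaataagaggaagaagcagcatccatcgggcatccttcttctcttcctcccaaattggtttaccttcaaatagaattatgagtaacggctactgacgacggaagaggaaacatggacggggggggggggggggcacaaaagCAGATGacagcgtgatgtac
sax-7: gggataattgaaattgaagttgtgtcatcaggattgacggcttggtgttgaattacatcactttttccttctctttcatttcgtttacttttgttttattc
ncam-1: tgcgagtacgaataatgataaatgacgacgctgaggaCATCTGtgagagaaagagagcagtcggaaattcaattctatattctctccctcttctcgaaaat

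The authors' lists hold 30000 regions for each library, 25493 for the pooled alignments and 1033 peaks kept by an irreproducible discovery rate (IDR) analysis of the pooled and single lists. The IDR peaks are the reproducible set. By the authors' label the pooled list holds peaks and background, as input for IDR. Pooled regions outside the IDR set therefore include background and are not taken as shown to be bound. The authors gave each region a signal score, and its scale is stated nowhere in the sources used here, so scores are compared within 1 list and regions are ranked from 1, the strongest. No count of reads is in the lists, so depth is unknown and no counting interval can be given. In the pooled list the median signal score was 14.2, the lowest IDR peak had 44.2 and the median IDR peak 59.2. All values below are descriptions of these lists, and no test was made: the error is the spread over the 4 libraries.

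Of the 9 adhesion genes, 2 had an IDR peak in their windows, rig-3 and sax-3, with 1 peak each. This is set beside 10.6% of all protein-coding genes with an IDR peak in the same kind of window. The members are long genes, of 6012 to 21429 bp against a median of 2026 bp over protein-coding genes, and 18.5% of the 2390 genes at least as long as the shortest member had an IDR peak. Both genes lie on X, where 2 of the 5 members there had an IDR peak and 15.6% of protein-coding genes did. With 9 genes, 1 gene more or fewer moves the members' share past the differences between these backgrounds, so 2 of 9 is not read as a difference from them. A pooled region lay in the windows of 8 of 9 members, against 87.5% of all protein-coding genes, a share near the background.

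rig-3 had the strongest region of the 9 genes in the pooled list. The gene occupies chrX:6853618-6860922 on the forward strand (WBGene00004370). Its IDR peak lay at chrX:6856848-6857191, with a pooled signal score of 127.3 and rank 81 among both the 1033 IDR peaks and the 25493 pooled regions. The summit was 3402 bp downstream of the 5′ end, in intron 1 of 8 of the single annotated transcript, an intron of 4595 bp. The region ranked 145, 94, 190 and 80 in replicates 1 to 4, with signal scores of 31.5, 46.0, 14.1 and 33.2 on the 4 separate scales. Its worst rank among the 30000 regions of a library was thus 190, and no other member region kept a rank this high in every library. The 4 library summits fell within 45 bp of each other, at 14 bp after, 30 bp before, 2 bp before and 15 bp after the pooled one (signed offsets 14, -30, -2 and 15).

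The rig-3 window held 7 pooled regions in all, the others with signal scores between 10.4 and 21.1. The highest of them, at chrX:6860548-6860891 in the 3′ UTR, was 2704 bp from the 5′ end of nep-4, nearer than that of rig-3. Another, at chrX:6853570-6853913, had its summit 124 bp downstream of the rig-3 5′ end and a signal score of 10.4, close to the lowest of the pooled list, 10.2. The region at chrX:6853076-6853419, whose summit was 370 bp before the 5′ end, had a signal score of 17.0 and rank 8252. The strong site of rig-3 was thus inside the first intron, and both regions within 500 bp of the 5′ end had far lower scores.

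sax-3, at chrX:3451908-3465927 on the reverse strand (WBGene00004729), had its IDR peak upstream of the gene. The peak, chrX:3469303-3469646, had a signal score of 83.2 and rank 216. Its summit was 3548 bp upstream of the sax-3 5′ end in intergenic DNA. A non-coding gene, ZK377.14, begins 1 bp from the summit on the other strand, and the near end of another, ZK377.4, lies 95 bp away; the sax-3 5′ end is the nearest of a protein-coding gene. The overlapping region ranked 92, 240, 349 and 10444 in replicates 1 to 4, with signal scores of 37.8, 32.4, 11.7 and 7.08. Replicates 1, 2 and 3 placed it at the top of their lists, at rank 349 or better, and replicate 4 did not. Summits of the 4 libraries spread over 190 bp, against 45 bp at rig-3.

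The region that was strongest at sax-3 in replicate 4 was a different one, at chrX:3470652-3471021 with a signal score of 13.0 and rank 1408. It matched the second pooled region of the gene, chrX:3470658-3471001, which had a pooled signal score of 31.1, rank 2183, and lay 4903 bp upstream of the 5′ end. That second region ranked 11882, 22517 and 12703 in replicates 1, 2 and 3. Replicates 3 and 4 carry the same fragmentation label, sonication with a generic microtip, and the same strain source label. Replicate 3 gave the same site as replicates 1 and 2, which are labelled with a size range of 150 to 350 bp. Only replicate 4 departed, and a part of the labels in this was not tested.

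**Figure D1:**
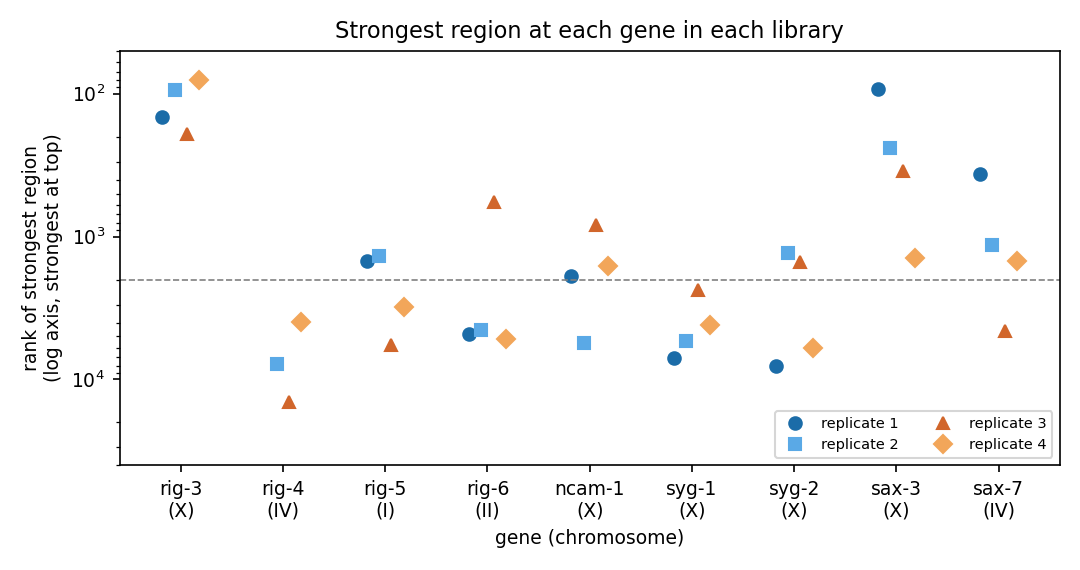
Rank (log axis, 1 strongest, at the top) of the strongest region in the window of each of the 9 genes, with 1 point per library and a dashed line at rank 2000. rig-3 lies between 80 and 190 in all 4 libraries and sax-3 between 92 and 1408, and no other gene stays within the first 2000 in every library; rig-4 has no region in replicate 1.

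sax-7 followed, with a strong region in some libraries and no IDR peak. The gene is the longest member, 21429 bp at chrIV:8062659-8084087 on the forward strand (WBGene00004732), with 6 annotated transcripts. Its strongest pooled region, chrIV:8080920-8081263, had a signal score of 35.2 and rank 1693, the highest of any member region outside the IDR set and below the lowest IDR peak at 44.2. The summit lay in an intron 562 bp downstream of an annotated internal 5′ end, and 18433 bp from the first 5′ end. The region ranked 363, 1153, 10475 and 1473 in replicates 1 to 4. A second sax-7 region, chrIV:8068814-8069157, had a pooled signal score of 29.6 and matched a region in replicates 2 and 4 alone, at ranks 1333 and 5124. Of 14 pooled regions at sax-7, 12 were inside the gene.

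Among the remaining rig genes, rig-5, at chrI:9565389-9574377 on the reverse strand (WBGene00004372), had 11 pooled regions. The strongest, chrI:9574067-9574410, had a signal score of 29.8 and rank 2391, with its summit in a coding exon 52 bp upstream of 1 of the gene's annotated 5′ ends. It was absent from replicate 1 and ranked 1370, 10465 and 3103 in replicates 2, 3 and 4. rig-5 was the member whose strongest pooled region lay nearest to an annotated 5′ end of its own.

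rig-6, the contactin homologue at chrII:4798151-4812086 on the reverse strand (WBGene00016354), also had 11 pooled regions. The highest signal score was 26.5, rank 2982, at chrII:4805005-4805348 in an intron, 6909 bp downstream of the 5′ end. This region was found in replicates 2 and 4, at ranks 4481 and 17110. Replicate 3 had its strongest rig-6 region elsewhere, at chrII:4816216-4816571, 4308 bp upstream, at rank 574 and signal score 10.5. No other library and no pooled region overlapped it. The best ranks at rig-6 in replicates 1, 2 and 4 were 4777, 4481 and 5234, so the libraries did not share one strong site at this gene.

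rig-4, at chrIV:7991410-8004119 on the reverse strand (WBGene00004371), was the one member with no pooled region. Its window held 0, 4, 2 and 7 regions in the lists of replicates 1 to 4. The strongest of them ranked 7852, 14446 and 3968 in replicates 2, 3 and 4, at 3 different places: 1981 bp downstream, 1312 bp upstream and 4075 bp upstream of the 5′ end. The region 1981 bp downstream was also found in replicate 4, at rank 5627, and the one 4075 bp upstream also in replicate 2, at rank 12683; the one 1312 bp upstream was in no other library. The libraries thus did not share a strongest region at rig-4.

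ncam-1, at chrX:691913-703047 on the forward strand (WBGene00017184), reached a pooled signal score of 26.8, rank 2907, at chrX:687501-687844, which is 4240 bp upstream of the 5′ end. Regions overlapping it ranked 1899, 5967 and 28585 in replicates 1, 2 and 3, and replicate 4 had none. The summits of replicates 2 and 3 lay 204 and 215 bp from this pooled summit. They were 1 and 12 bp from the summit of an overlapping pooled region, chrX:687704-688047, so they were nearer to that region. The strongest ncam-1 region of each library ranked 1899, 5543, 824 and 1608. These 4 regions lay at 4 different sites: 4273 bp upstream in replicate 1, and 6157, 2185 and 11079 bp downstream in replicates 2, 3 and 4. High ranks in single libraries at this gene thus did not mark one shared site.

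The receptor pair syg-1 and syg-2 had weak regions. At syg-1, chrX:2509313-2515324 on the reverse strand (WBGene00006365), the highest of 7 pooled signal scores was 14.7, rank 11757, near the list's median of 14.2. An IDR peak lay just outside the window, at chrX:2521163-2521506, with its summit 6011 bp upstream of the gene and a signal score of 49.8, rank 780. It ranked 3009, 346, 21755 and 1429 in replicates 1 to 4, and the nearest protein-coding 5′ end was that of syg-1. The limit of 5 kb therefore decides whether syg-1 counts as a member with an IDR peak. The sax-3 peak, 3548 bp from its gene, was inside that limit. For the other 8 genes the next IDR peak outside the window lay 22591 to 116705 bp from the gene.

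At syg-2, chrX:14654968-14662865 on the forward strand (WBGene00007750), the highest of 6 pooled signal scores was 18.0, rank 7166, at chrX:14650899-14651242, 3897 bp upstream of the 5′ end. The strongest regions of replicates 1 to 4 ranked 8088, 1302, 1516 and 6055 and lay at 4 different places. The 2 better ranks, in replicates 2 and 3, were in the 3′ UTR and 237 bp upstream of the 5′ end. No syg-2 region recurred among the strongest of more than 1 library.

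To set the genes on one scale, every protein-coding gene was ranked in each library by its strongest region, and the percentile of each member was averaged over the 4 libraries, 100 being the strongest. rig-3 was at 98.7 ± 0.51 and sax-3 at 94.7 ± 6.04 (SD, n = 4 each). sax-7 followed at 82.2 ± 15.9, ncam-1 at 78.9 ± 14.0, rig-5 at 73.9 ± 15.8 and rig-6 at 69.1 ± 16.9 (SD, n = 4 each). syg-2 was at 66.6 ± 22.3, syg-1 at 61.9 ± 12.1 and rig-4 at 33.98 ± 27.8 (SD, n = 4 each). From sax-7 to syg-1 each step in this order was smaller than the SD over libraries, so neighbours there are not told apart. The gap of sax-3 to sax-7 was 12.46 points, within the SD of sax-7. rig-3 had the smallest spread, and its lowest percentile, 98.0, was above the highest of every member but sax-3.

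Long genes collect more regions, so the percentile was also taken among the 2390 genes at least as long as syg-1, the shortest member, an alternative added after the data were seen. rig-3 was then at 97.9 ± 1.00 and sax-3 at 90.7 ± 10.2 (SD, n = 4 each). The others moved down more, to 72.2 for sax-7, 67.2 for ncam-1, 60.3 for rig-5, 54.6 for rig-6, 52.5 for syg-2, 45.2 for syg-1 and 21.0 for rig-4. The order of the genes was the same on both scales. It was not the same when the gene body alone was counted for every gene. Then rig-3 was still first, at 99.8, but ncam-1 at 94.5, rig-5 at 94.1 and sax-7 at 93.3 stood above sax-3 at 91.3, and syg-1 was at 88.7, rig-6 at 87.6, syg-2 at 68.0 and rig-4 at 57.7. The second place of sax-3 therefore rests on the window upstream of the gene, where its IDR peak lies.

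Among the 2000 strongest regions of a library, 5, 5, 5 and 4 of the 9 members had a region in replicates 1 to 4. In the same lists 19.2, 19.1, 20.2 and 19.8% of all protein-coding genes had one. Among genes at least as long as the shortest member the shares were 30.9, 32.1, 32.9 and 32.3%. rig-3, sax-3, sax-7 and ncam-1 reached this level in 3 or more of the 4 libraries, that is 4 of 9 members, against 11.3% of all protein-coding genes and 21.8% of the long ones. At ncam-1 the regions were at different sites, as described. At sax-7 the regions of the 3 libraries overlapped the same pooled region. Their summits were offset by -124, -62 and 68 bp from its summit in replicates 1, 2 and 4. These counts were not tested, and single genes of the 9 make up each step.

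**Figure D2:**
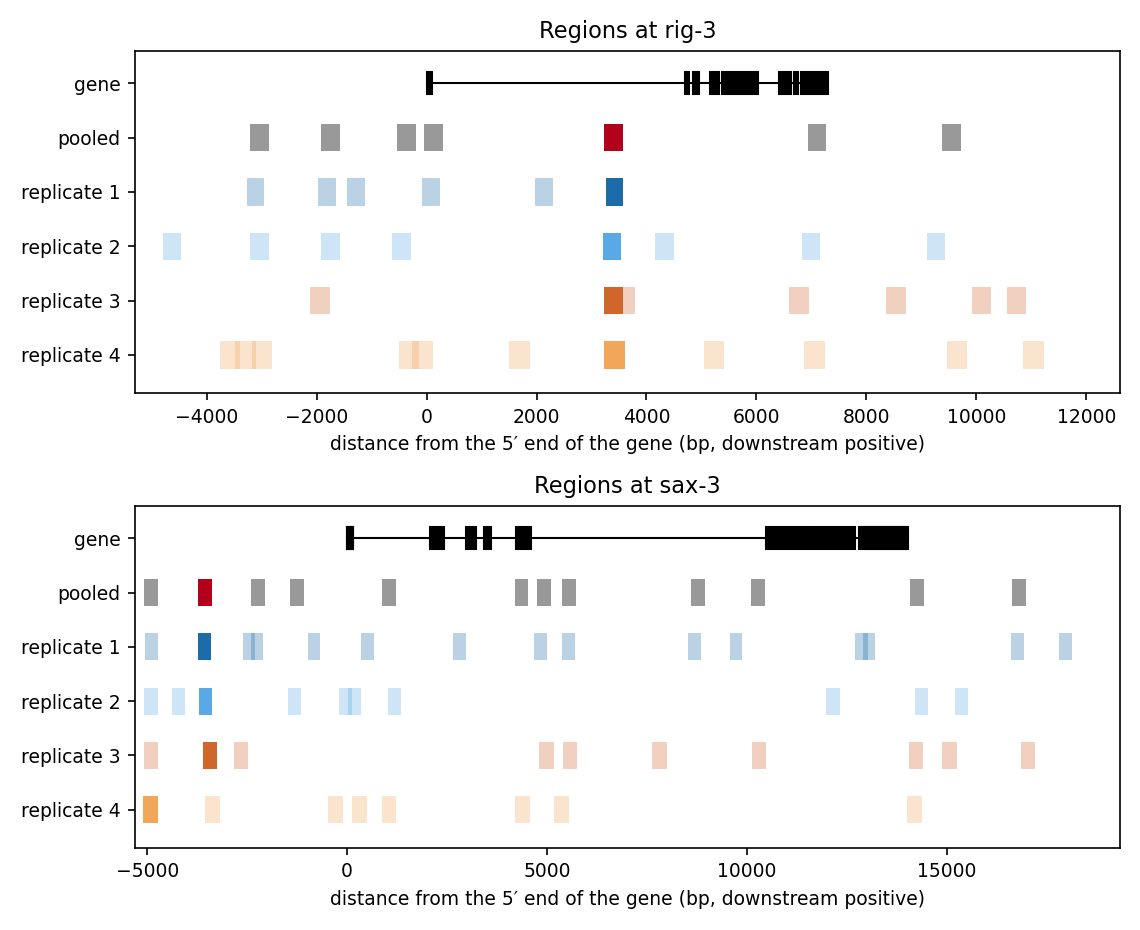
Maps of rig-3 (top) and sax-3 (bottom) drawn to scale by distance from the gene's 5′ end in the direction of transcription: exons of any transcript in black, pooled regions in grey with the IDR peak in red, and each library's regions below, in full colour where the region is among the library's 2000 strongest and pale otherwise. At rig-3 the full-coloured regions of all 4 libraries coincide 3402 bp inside the gene; at sax-3 those of replicates 1 to 3 mark the site 3548 bp upstream and that of replicate 4 the one 4903 bp upstream.

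In all, 74 pooled regions fell in the 9 windows. They were spread over introns (35 summits, 47.3%), intergenic DNA (18, 24.3%), coding exons (11, 14.9%), exons of non-coding genes (5, 6.76%), 3′ UTRs (4, 5.41%) and a 5′ UTR (1, 1.35%). Over all 25493 pooled regions, 33.3% of summits were in introns, 43.7% were intergenic and 12.5% were in coding exons. Of the 74 summits, 46 were inside a member; the part of gene length in the higher intron share was not tested. For 55 of the 74 the nearest 5′ end of a protein-coding gene was the member's own, and 16 were within 500 bp of the nearest such end. At sax-3 the nearest 5′ end was another gene's for 8 of 12 pooled regions, among them ZK377.15 and ZK813.5. ZK377.15 is a short entry inside sax-3, at chrX:3465856-3465885, close to the sax-3 5′ end. For the region at chrX:3464703-3465046 its 5′ end was 1010 bp away and that of sax-3 1052 bp, so it was hardly nearer. The count of 55 treats such regions as another gene's.

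The pooled regions numbered 3.83 per 10 kb of the members' windows, 2.54 per 10 kb in the windows of all protein-coding genes, 2.73 in those of long genes and 2.96 in those of genes on X. rig-5 had the highest density at 5.79, then sax-3 at 4.996, rig-6 at 4.60, sax-7 at 4.45, syg-1 at 4.37, rig-3 at 4.05, syg-2 at 3.35 and ncam-1 at 2.84 per 10 kb. rig-4, with none, was the one member below the density of all windows. The signal of these regions was ordinary, with a median score of 14.8 at the members and 14.2 over the whole list. Single libraries showed the same direction: the members held 3.71 ± 0.36 regions per 10 kb (SD over libraries, n = 4). The mean was 3.00 in the windows of all protein-coding genes (SD 0.0075) and 3.15 in those of long genes (SD 0.015). Every library list holds 30000 regions, and the merged windows of all protein-coding genes span 96986678 bp. Their density is thus nearly fixed by the length of the list, and its small SD is not an error of the comparison. In numbers, replicates 1 to 4 had 62, 78, 75 and 72 regions at the members. The members' density was above that of all windows in each of the 4 libraries, by the least in replicate 1, 3.21 against 3.01 per 10 kb.

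**Figure D3:**
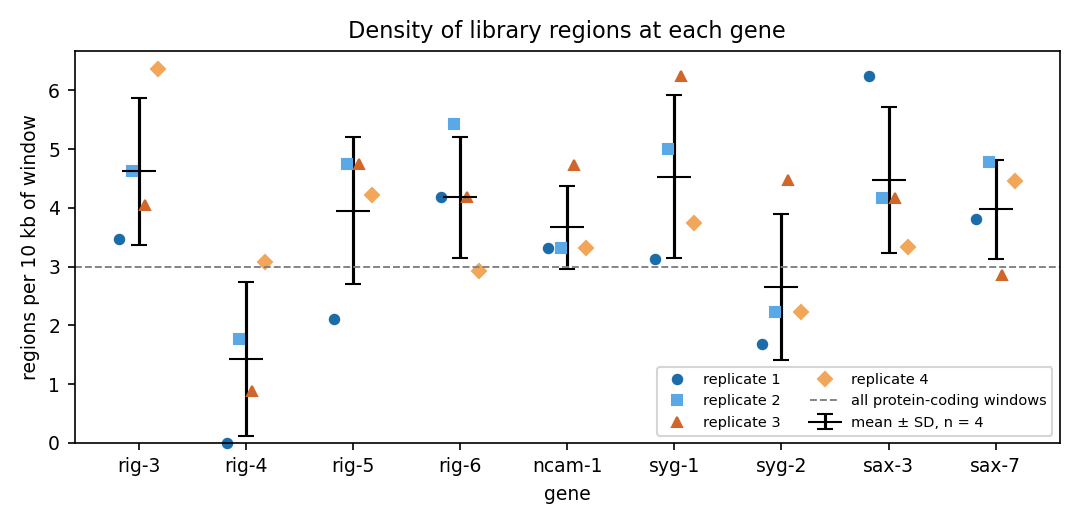
Regions per 10 kb of window in each of the 4 libraries (points) with the mean and SD (bars) for each of the 9 genes, and the mean over all windows as a dashed line. rig-3 averages 4.62 ± 1.25 and rig-4 1.43 ± 1.31 per 10 kb (SD, n = 4 each), against 3.00 for the windows of all protein-coding genes; syg-2, at 2.65 ± 1.24, also averages below the line.

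Recurrence of the members' regions was near that of the whole list. Of the 74 pooled regions, 6 overlapped a region in all 4 libraries, 21 in 3, 27 in 2, 18 in 1 and 2 in none. The share found in all 4 was 8.11% at the members, against 11.9% of all pooled regions, the share found in 3 or more was 36.5% against 34.4%, and the share found in none was 2.70% against 4.88%. The 6 were 1 at rig-3, 2 at sax-3, 2 at rig-6 and 1 at sax-7. Those at rig-6 recurred at low ranks. The region at chrII:4793435-4793778, with a pooled signal score of 20.4 and the 5′ end of F26G1.1 nearer than that of rig-6, ranked 23342, 12426, 29811 and 5276 in replicates 1 to 4. The one at chrII:4801332-4801675, with 19.6, ranked 23566, 26302, 12520 and 29711. Presence in every library was therefore not the same as a strong region in every library, and the rig-3 site alone of the 6 had both. When 1 library is left out, the number found in all the remaining 3 is 10 without replicate 1, 10 without replicate 2, 13 without replicate 3 and 12 without replicate 4. Counting a match only where summits are within 100 bp leaves 3 of the 6. The sax-3 IDR peak is not among them, with summit offsets of -112 and -174 bp in replicates 3 and 4. The sax-7 region drops out too, with offsets of -124 and -187 bp in replicates 1 and 3. Of the 287 library regions at the members, 107 (37.3%) overlapped none of another library, against 39.5% of all library regions. The strongest region of a gene in a library, 35 in all because rig-4 had none in replicate 1, was found in every other library for 11, in no other library for 11, and overlapped no pooled region for 9. Those found in every other library were all at rig-3, sax-3 and sax-7. The same shares were not taken for the strongest regions of other genes, so these counts are not read as particular to the members.

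**Figure D4:**
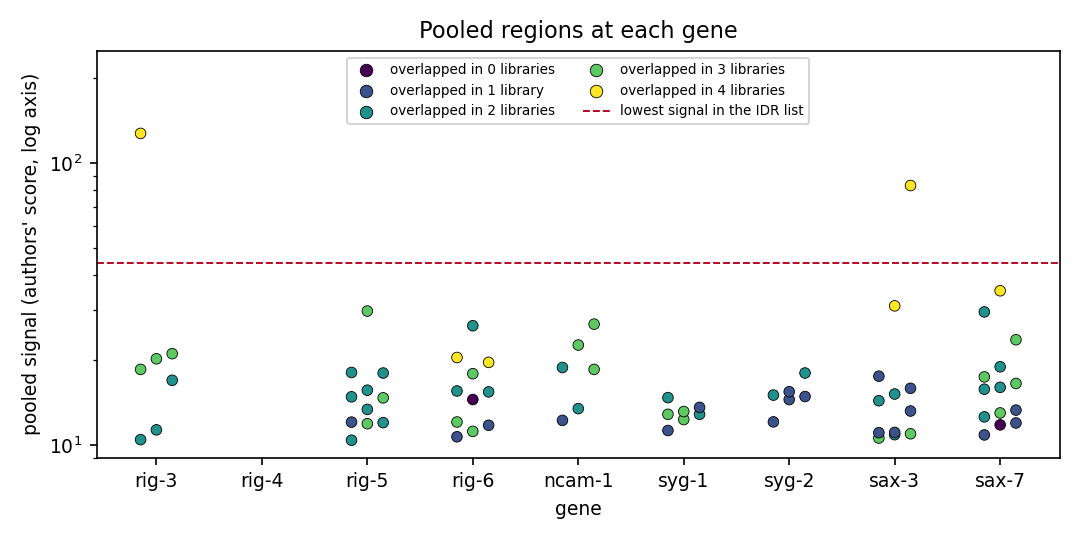
Pooled signal score (log axis) of each of the 74 pooled regions at the 9 genes, with the number of libraries in which each was found, and the lowest IDR signal score, 44.2, as a line. The regions at rig-3 (127.3) and sax-3 (83.2) stand above the line and all others lie at or below 35.2.

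E-boxes were counted within 50 bp of each summit, on both strands. Any CANNTG was found at 24 of the 74 member regions (32.4%), against 30.1% of all pooled regions and 31.6% of IDR peaks, which is close to the background. CAGGTG, which reads CACCTG on the other strand and is one of the CANNTG forms, was found at 0 of 74. The share over all pooled regions was 2.13% and over IDR peaks 0.968%. With shares this low and only 74 regions, some of which overlap each other, 0 is not read as a lack of CAGGTG at the members. Within 100 bp of the summit, 4 member regions had CAGGTG. The background share in this wider window was not taken, so the 4 are not compared with the shares above. A paired homeodomain motif, TAAT and ATTA set 3 bases apart, was found at 1 member region (1.35%), chrII:4801332-4801675 in rig-6, against 0.796% of all pooled regions and 1.36% of IDR peaks. Runs of 10 or more G or C, searched after the sax-3 sequence was seen and within the longer windows of 299 bp, occurred at 0.612% of all pooled regions (156), at 0.581% of IDR peaks (6) and at 2 member regions, both at sax-3. A match is a description of the letters and does not show what CES-1 contacts.

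Of 70 other genes of axon guidance and neuronal adhesion, listed with earlier results of these data known, 68 were found in the annotation under the listed symbols, and 21 of them (30.9%) had an IDR peak in the window, against 10.6% of all protein-coding genes. These too are long genes, with a median of 7466.5 bp. Among the 39 at least as long as the shortest member, 13 had an IDR peak, against 18.5% of long genes. Because the list was drawn up with earlier results known, neither share is read as an enrichment over its background. For 14 of the 21 the nearest protein-coding 5′ end was the gene's own. A pooled region lay at 67 of 68.

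The strongest of these partner peaks was at vab-1, the Eph receptor, with a signal score of 108.9, rank 117, and library ranks of 344, 105, 120 and 721. The next was at fmi-1, the Flamingo cadherin, with 99.9 and library ranks of 229, 108, 767 and 319. The worst library rank was 721 at vab-1 and 767 at fmi-1, against 190 at rig-3, and both scores were below the 127.3 of rig-3. At him-4, which encodes the extracellular immunoglobulin-repeat protein hemicentin, the score was 94.4 and the library ranks were 213, 233, 489 and 375. Its worst rank, 489, was nearer to the 190 of rig-3 than those of vab-1 and fmi-1. The him-4 summit lay in an intron 26117 bp downstream of the gene's 5′ end, with the 5′ end of F15G9.5 nearest. dma-1, the dendrite receptor that acts with SAX-7, had a peak of 82.6 whose library ranks, 961, 396, 17525 and 66, departed in replicate 3. Its summit lay outside dma-1, 3775 bp upstream of the 5′ end and in an intron of another gene. The peak in the window of unc-40, the netrin receptor, had 79.1; its summit lay 13288 bp from the unc-40 5′ end, outside the gene and 423 bp upstream of aprt-1. Smaller scores were seen in the windows of zig-7 (65.6) and zig-8 (64.8), which encode small immunoglobulin-domain proteins. The zig-7 peak was outside the gene, 266 bp upstream of rpl-41.2, and the zig-8 peak was inside the gene in an intron, with the 5′ end of bre-2 nearest. Peaks were also seen at ptp-3, a LAR-type receptor phosphatase (58.4), and at mab-20, a semaphorin (56.7). The mab-20 peak ranked 335, 2786 and 897 in replicates 1, 2 and 4, and no region of replicate 3 overlapped it.

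Partners of members differed in whether a peak was present. The gene zig-8, which encodes the partner of RIG-5, had an IDR peak and rig-5 did not. slt-1, which encodes the ligand of SAX-3, had none and sax-3 did. mnr-1 and lect-2, whose products act with SAX-7 and DMA-1, had none, and of that group dma-1 alone did. Of the receptor pair syg-1 and syg-2, neither had one in its window.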

How the data were processed

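Regions came from narrowPeak lists for ce11 (WBcel235) as deposited by the authors. The file records state that the list of a library came from its own alignment and 1 shared control alignment, the pooled list from all 4 alignments and that control, and the IDR list from the pooled and single lists. Each region's signal score is the authors' own, as deposited, and was used to describe and rank regions within 1 list. The aligner, the peak caller with its settings and the IDR cutoff were not named in these sources. The 4 libraries are biological replicates of 1 strain by the labels. Summits were assigned to windows of 5 kb around genes of Ensembl release 115. A pooled region counted for a library at an overlap of at least 1 bp. The 9 genes, the list of partner genes and the alternatives were chosen with earlier results of these data known. The text names all 9 genes and, of the partners with an IDR peak, the 10 with the highest signal, of which 1 is not reported here; slt-1, mnr-1 and lect-2 were added after their values were seen. A gene's summit class is the first of coding exon, UTR (5′ before 3′), non-coding exon, intron and intergenic that applied. Counting steps were tested on simulated data. Python 3.11.15, numpy 2.4.6, pandas 2.3.3 and matplotlib 3.10.9 were used. No measurement column was dropped from the lists (0 left out).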

Additional observations from a re-analysis of the deposited data

Results flagged for a closer look

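In 4 cases, out of 30 sets of 4 values examined, values of single libraries stood apart from those of the other 3. The measure was the gap between the farthest library and its nearest neighbour. Chance flags about 1 in 20 sets of values that follow a normal distribution, which was not checked for these sets. At rig-6 the strongest region of replicate 3 ranked 574, against 4777, 4481 and 5234 in replicates 1, 2 and 4. At ncam-1 replicate 3 had 10 regions in the window, against 7 in each of the other libraries. At the sax-3 IDR peak the overlapping region of replicate 4 ranked 10444, against 92, 240 and 349 in replicates 1 to 3. In replicate 4, 4 of the 9 genes had a region among the 2000 strongest, against 5 in each of the other libraries. In both sets of counts the other 3 libraries were tied, so any difference in the last would have stood apart. The rate of 1 in 20 does not apply to these counts. It need not hold for the ranks at rig-6 and sax-3 either, because ranks spread over a very wide range.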

How the results depend on the processing

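The count of members with an IDR peak was 2 in the window of 5 kb, 1 with 2 kb or in the gene body alone (rig-3), and 3 with 10 kb, where syg-1 joins. The 74 pooled regions were 46 in the gene body alone. The mean of 71.75 regions per library was 52 with 2 kb, 99.25 with 10 kb, 40.75 in the gene body, 51 where the nearest 5′ end had to be the member's own, and 25 among the 10000 strongest regions of each library. The mean of 4.75 members with one of the 2000 strongest regions was 3.5 with 2 kb, 5.75 with 10 kb, 3.25 in the gene body, 2.5 for the 1000 strongest and 6.5 for the 5000 strongest. The 6 pooled regions found in all 4 libraries were 3 where summits had to be within 100 bp, 1 among the 10000 strongest, and 10 to 13 when 1 library was left out and the other 3 had to match. In the gene body alone the mean percentile of sax-3 was 91.3, below ncam-1, rig-5 and sax-7. Regions with CAGGTG numbered 0 within 50 bp of the summit and 4 within 100 bp. The pairs of libraries with the same fragmentation label, set apart after the data were seen, gave 70 regions for the pair with a size range and 73.5 for the pair labelled microtip. These pairs also differ in the strain source label. These moves follow from the size of the window, the list or the match itself. No paired analysis was possible because there is 1 group. Depth is unknown, and a library list ends at 30000 regions, so weaker regions are not seen.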
